A study of Rattus norvegicus and Mus musculus with 17 samples.

Results

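The Slc25 genes encode the mitochondrial carriers, and 32 of them had values in at least 1 of 3 gene tables made from rodent liver and liver tumours. Members were taken by symbol, as every listed gene whose symbol begins with Slc25a followed by a digit, with Slc25a13 and Slc25a15 left out. The tables held 11532 different symbols between them. Of the 32 members, 21 were among 4649 genes listed for DEN liver tumours in mice, 20 were among 9082 listed for the Morris hepatoma in rats, and 5 were among 2093 listed for regenerating rat liver. Slc25a10, Slc25a11 and Slc25a47 made up the 3 members present in all of the tables. A gene appeared in a table only where the authors' own p was under 0.05, so each listed member had already been selected on the contrast it is shown for, and a member without an entry has no value here. The annotations used for names held 45 such symbols of protein-coding genes in the mouse and 51 in the rat.

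Carriers are small proteins of the inner mitochondrial membrane that exchange metabolites, nucleotides, cofactors and ions between the cytosol and the matrix. They share a fold of repeated membrane-spanning elements around a central binding site, and most swap one substrate for another. In hepatocytes they connect the cytosolic and matrix steps of fatty acid oxidation, gluconeogenesis, urea synthesis, lipogenesis and haem synthesis. Slc25a17 is a relative that resides in peroxisomes.

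Total RNA of liver was sequenced. The mice were male C57BL/6. Every mouse in both mouse groups had received the carcinogen diethylnitrosamine (DEN) at 50 mg/kg at 14 days of age, followed after 30 days by 2 mg/kg of TCPOBOP, an agonist of the nuclear receptor CAR that drives hepatocyte growth. Liver was taken at 5 months, before tumours (3 libraries), or at 8 months, with tumours (3 libraries), so tumour presence and age cannot be told apart. The rats were male ACI. Morris hepatoma libraries (4) came from tumours that grew for 2 weeks after 1000000 MH3924a cells, a single transplantable hepatoma line, were placed in the liver of rats of 10 weeks. Regenerating liver (4 libraries) was collected 24 hours after partial hepatectomy in rats of 10 to 12 weeks. Age-matched untreated rat liver (3 libraries) was the control for both rat comparisons, which therefore share those control libraries. The labels do not say which libraries came from separate animals, so each p-value measures the spread between these libraries.

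Values are RPKM, reads per kilobase of transcript scaled to library size, and no read totals were given. From the steps of the lowest values, the depth of each library within its group lay between 0.882 and 1.14 times that of the first library of the group. Hepatocyte transcripts separated the hepatoma libraries. Albumin (Alb), the main secreted product of hepatocytes, was 67210, 60250 and 48190 RPKM in control rat liver and 574, 19.0, 10940 and 10920 RPKM in hepatoma libraries 1 to 4. The sum of the 11 hepatocyte markers listed, of 14, was 107500 to 133400 RPKM in control liver and 1238, 109.1, 29980 and 24670 RPKM in the hepatomas. Stellate and fibroblast markers moved the other way, with a sum over 5 listed of 7 genes of 19.4 to 78.4 RPKM in control liver and 445 to 1125 RPKM in the hepatomas. In the mouse, Alb was 20860, 24970 and 28260 RPKM before tumours and 86110, 78940 and 84180 RPKM with tumours, but the hepatocyte markers did not move together: of 7 listed, 3 rose, 2 fell and 2 did not pass. Apoa2 and Serpina1c were the ones that fell, with log2 fold changes of -1.11 and -0.78, and the sum of the 7 was 67480 to 80710 RPKM before tumours and 154300 to 174800 RPKM with tumours. Alas2, the erythroid haem synthesis gene, was 67.8 to 79.9 RPKM before tumours and 6.73 to 15.0 RPKM with them, and no other erythroid marker was listed. In bulk tissue, fewer cells of a type and less RNA per cell cannot be told apart. The part of these cell markers in the carrier results was not tested, except where values are given beside a result.

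Carriers were lower in mouse livers with DEN tumours than before tumours. Of 18 members tested, 14 fell, 0 rose and 4 did not pass the test (limma, Benjamini-Hochberg adjusted p under 0.05 over all annotated protein-coding genes). Among all 3684 genes tested in the same table, 49.5% were called lower and 17.9% higher, and the table itself held 3321 genes with a negative deposited log2 ratio of 4649. The median log2 fold change was -0.81 over the 18 members, on the scale of log2(RPKM + 1), and -0.56 over all genes tested, with 17 of the members below that median. When each library was scaled to the median of the listed genes, 3 members (Slc25a21, Slc25a42 and Slc25a10) were called lower, and after quantile normalization 2 (Slc25a21 and Slc25a42) were. Of all 3684 genes tested, 1526 were called in either direction with median scaling and 1472 after quantile normalization, against 2481 without scaling. Leaving out 1 library at a time gave 7 to 14 members called lower, with the fewest without library 1 or library 2 from before tumours, and 9 without library 3 with tumours. Calls over all tested genes, in either direction, also varied in these fits, from 1347 to 2593. The summed RPKM of the 21 listed members was 1294 to 1507 before tumours and 782 to 901 with tumours.

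**Figure D1:**
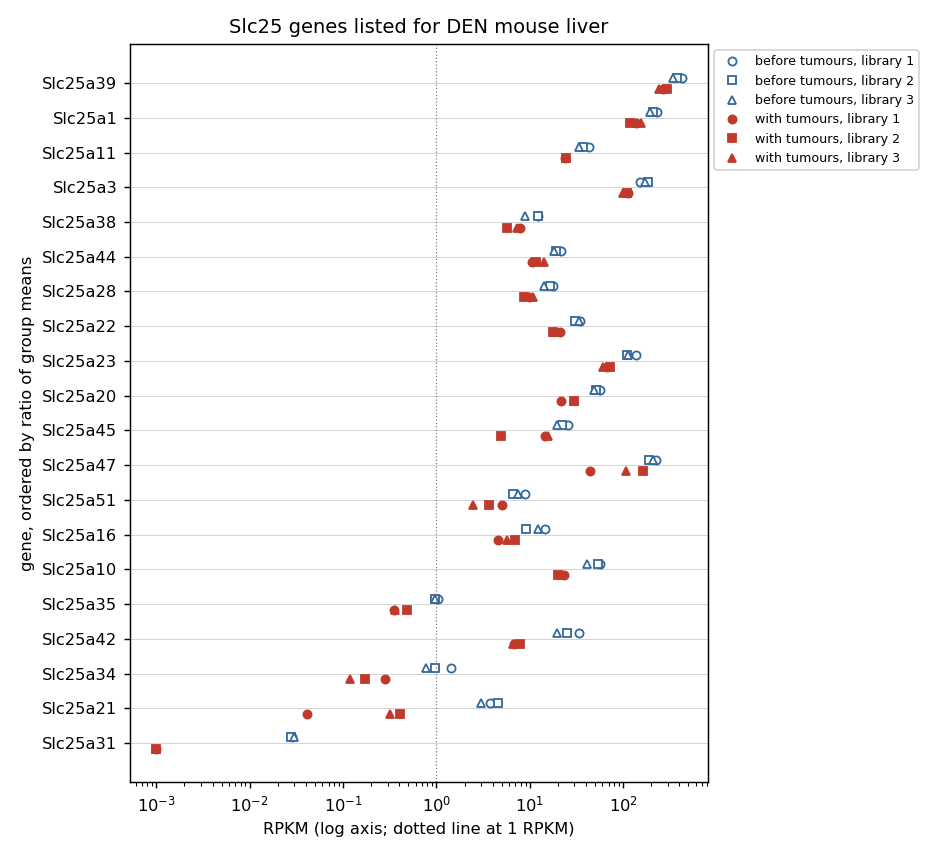
RPKM of 20 listed Slc25 genes in the 6 mouse libraries on a log axis, with open symbols for liver before tumours and filled symbols for liver with tumours, 1 symbol shape per library. In each of the 20 genes the 3 libraries with tumours lie below the 3 from before tumours. Listing at a deposited p under 0.05 favours such separation, which all 20 hepatoma members also showed. Its share over all listed genes was not computed. Slc25a31, Slc25a21 and Slc25a34 have the largest ratios of group means, but Slc25a31 and Slc25a34 were too low to be tested. Slc25a31 is at 0.001, which stands for no reads, in all libraries with tumours.

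Of the di- and tricarboxylate carriers, 4 of 4 tested members fell, against 49.5% of all tested genes. Their sizes ran from the largest called decrease of the family, in Slc25a21, to the smallest, in Slc25a11. Slc25a21, which carries the oxodicarboxylates of lysine and tryptophan breakdown, was 3.73, 4.59 and 2.97 RPKM before tumours and 0.0408, 0.408 and 0.320 RPKM with tumours. All 3 libraries with tumours were below the lowest earlier one, and the group means differed 14.7-fold (log2 fold change -1.92 ± 0.17, SE, adjusted p = 0.000445). Slc25a21 reached the minimum of 1 RPKM before tumours alone, so its entry to the test depended on the difference itself. Slc25a10, the dicarboxylate carrier that exchanges malate and succinate for phosphate, was 56.3, 53.9 and 41.5 RPKM before tumours and 23.4, 19.9 and 21.8 RPKM with tumours. Its groups did not overlap and the libraries with tumours were close together (-1.18 ± 0.16, adjusted p = 0.00240). Slc25a11, the oxoglutarate carrier of the malate-aspartate shuttle, was 42.6, 36.9 and 33.4 RPKM before tumours and 23.6, 24.6 and 24.3 RPKM with tumours. The difference was smaller (-0.61 ± 0.14, adjusted p = 0.0228) and lost its call without library 1 or 2 from before tumours or library 1 or 3 with tumours, with an adjusted p of up to 0.0888. Slc25a1, the citrate carrier that exports citrate for lipid synthesis, had means of 211.7 ± 19.9 and 137.7 ± 19.7 RPKM (SD, n = 3 each). Its call (-0.62, adjusted p = 0.0424) was lost on leaving out any of the 6 libraries, and its sign turned to 0.17 after quantile normalization.

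Slc25a34 and Slc25a35, relatives of the same branch, stayed under the minimum of 1 RPKM in 3 libraries that a gene needed to be tested. Slc25a34 was 1.45, 0.958 and 0.779 RPKM before tumours and 0.278, 0.171 and 0.119 RPKM with tumours. Slc25a35 was 1.05, 0.976 and 0.970 RPKM before tumours and 0.350, 0.488 and 0.363 RPKM with tumours. Neither pair of groups overlapped, and neither gene entered the test.

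Cofactor carriers fell in 4 of 5 cases, against 49.5% of all tested genes. Slc25a42, which takes coenzyme A into the matrix in exchange for adenine nucleotides, was 33.4, 25.2 and 19.7 RPKM before tumours and 6.84, 7.77 and 6.69 RPKM with tumours. The libraries with tumours were nearly equal and all under the lowest earlier value (3.68-fold lower mean, log2 fold change -1.71 ± 0.19, adjusted p = 0.00102). Slc25a16, a relative linked to coenzyme A uptake, was 14.6, 9.01 and 12.4 RPKM before tumours and 4.61, 7.03 and 5.64 RPKM with tumours. Its groups were separate by a narrower gap (-0.93 ± 0.20, adjusted p = 0.0180), and the call was lost without library 1 or 3 of either group (adjusted p up to 0.0800). Slc25a51, the NAD carrier, was 8.81, 6.53 and 7.46 RPKM before tumours and 5.08, 3.63 and 2.44 RPKM with tumours. It fell by 0.90 ± 0.21 on the log2 scale (adjusted p = 0.0286), a call that was lost without any library from before tumours or without library 3 with tumours (up to 0.131). Slc25a39, which is needed for glutathione import, was the most abundant member, at 379.8 ± 42.6 RPKM before tumours and 268 ± 24.5 RPKM with them, and it did not pass (-0.50 ± 0.16, adjusted p = 0.0872). Its share of the summed RPKM of the listed members was 26.2 to 28.1% before tumours and 29.4 to 34.1% with tumours.

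Slc25a20, the carnitine-acylcarnitine carrier that brings long-chain fatty acids to oxidation, was 56.5, 50.7 and 48.7 RPKM before tumours and 21.7, 30.1 and 30.1 RPKM with tumours. Every library with tumours was lower (-0.92 ± 0.16, adjusted p = 0.00855), and the call held when any 1 library was left out. Both tested members of the adenine nucleotide and phosphate group fell, where 49.5% of all tested genes did. Slc25a23, a calcium-regulated ATP-Mg/phosphate carrier, went from 120.2 ± 14.1 to 66.4 ± 5.98 RPKM (adjusted p = 0.00864), and Slc25a3, the phosphate carrier that feeds ATP synthase, from 170.3 ± 16.3 to 107.9 ± 6.98 RPKM (adjusted p = 0.0221), which turned to a log2 difference of 0.17 after quantile normalization. Slc25a31, an adenine nucleotide translocase known from testis, was 0.0283, 0.0277 and 0.0300 RPKM before tumours and was listed at 0.001, the value that stands for no reads, in all 3 libraries with tumours. At that level it was not tested. Among amino acid carriers, Slc25a22, a glutamate carrier, fell from 32.9 ± 2.00 to 19.0 ± 1.77 RPKM (adjusted p = 0.00710) and Slc25a44, a carrier of branched-chain amino acids, from 19.8 ± 1.81 to 12.2 ± 1.89 RPKM (adjusted p = 0.0220). Slc25a38, a glycine carrier of haem synthesis, had means of 11.2 ± 1.96 and 6.91 ± 1.13 RPKM and did not pass (adjusted p = 0.0544, and 0.0377 without library 3 from before tumours). The iron carrier Slc25a28 (mitoferrin 2) fell from 16.0 ± 1.73 to 9.80 ± 1.07 RPKM (adjusted p = 0.0181). The call of Slc25a28 was lost without library 1 or 2 from before tumours (up to 0.0823), that of Slc25a44 without either of these or library 1 with tumours (up to 0.0966), and that of Slc25a3 without library 2 or 3 from before tumours or library 3 with tumours (up to 0.108).

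Slc25a47 is a liver-enriched carrier whose substrate is not settled. It was 226.7, 189 and 209 RPKM before tumours and 44.6, 163 and 108 RPKM with tumours. The 3 libraries with tumours spread widely, from just under the earlier values to far below them, and the difference did not pass (-1.16 ± 0.43, adjusted p = 0.196). Without library 2 with tumours, the highest of the 3, the adjusted p was 0.0238. Slc25a45 also spread widely with tumours, with means of 22.4 ± 3.08 and 11.7 ± 5.89 RPKM (adjusted p = 0.210) and library 2 with tumours, at 4.92 RPKM, far under libraries 1 and 3 at 14.4 and 15.7 RPKM.

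In the Morris hepatoma, the carriers diverged. Of 20 members tested against control rat liver, 13 rose, 2 fell and 5 did not pass, against a background of 85.5% of the 8233 genes tested called higher and 8.73% called lower. The median log2 fold change was 0.92 over the members and 1.58 over all genes tested, and 15 of the 20 members lay below that median. The direction of most increases depended on scaling: with the listed genes' median equalised, 10 of the 13 turned negative, 2 (Slc25a4 and Slc25a24) were called higher and 11 members were called lower. After quantile normalization 8 of the 13 turned negative, 3 (Slc25a3, Slc25a4 and Slc25a24) were called higher and 8 members were called lower. Of all 8233 genes tested, 4418 were called in either direction with the median equalised and 4392 after quantile normalization, against 7761 on the deposited scale. Both scalings set the libraries' listed genes level, in a table where 7973 of 9082 genes had a positive deposited log2 ratio. The increases below are therefore given on the deposited scale, and Slc25a4 and Slc25a24 are the members among the 13 that kept both sign and call under both scalings.

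**Figure D2:**
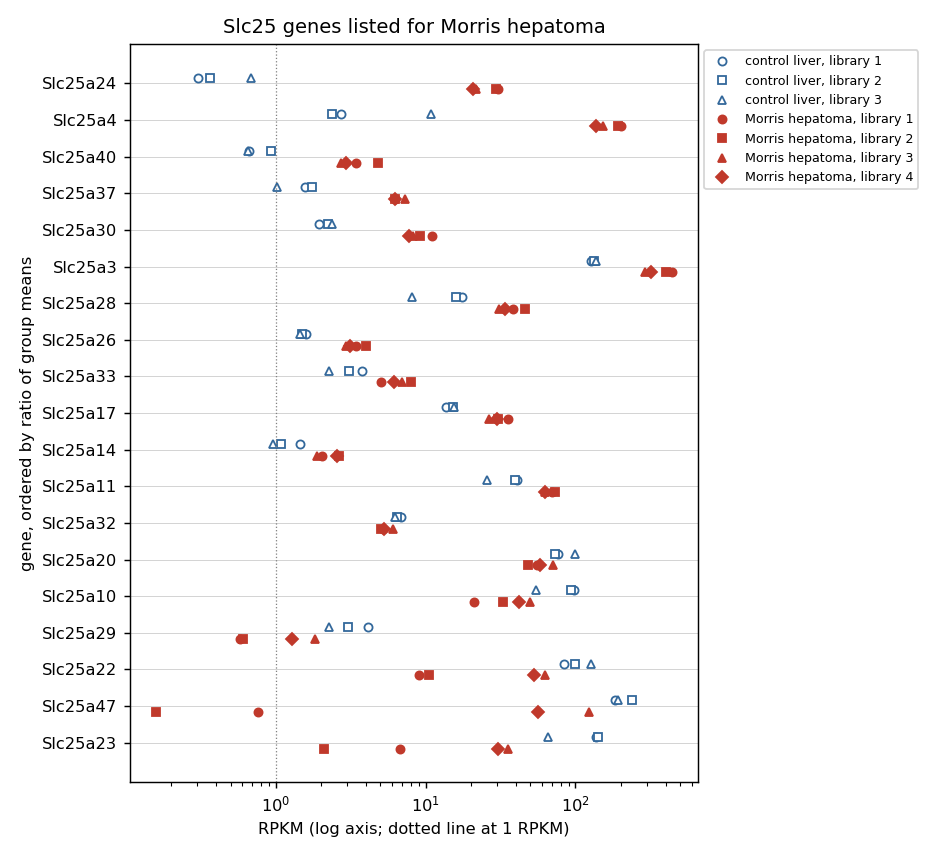
RPKM of 19 listed Slc25 genes in the 7 rat libraries on a log axis, with open symbols for control liver and filled symbols for Morris hepatoma, 1 symbol shape per library. Slc25a24 and Slc25a4 sit at one end with all hepatoma libraries far above control, and for Slc25a23, Slc25a47 and Slc25a22 at the other end hepatoma libraries 1 and 2 lie far below libraries 3 and 4.

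Promoters of 4 rat members are shown because these genes carry the rat results: Slc25a4 and Slc25a24 were higher in the hepatoma under every scaling, Slc25a10 was lower in the hepatoma than in control and in regenerating liver, and Slc25a47 was the most abundant listed member in control rat liver. The sequences are RefSeq, rat build GRCr8, each 300 bases long across the annotated start, most of it upstream, on the plus strand, at chr16:52805271-52805570 for Slc25a4, chr2:199449175-199449474 for Slc25a24, chr10:106264146-106264445 for Slc25a10 and chr6:133531491-133531790 for Slc25a47. Capitals mark GC boxes (GGGCGG) and CCAAT boxes (CCAAT) on either strand.
Slc25a4: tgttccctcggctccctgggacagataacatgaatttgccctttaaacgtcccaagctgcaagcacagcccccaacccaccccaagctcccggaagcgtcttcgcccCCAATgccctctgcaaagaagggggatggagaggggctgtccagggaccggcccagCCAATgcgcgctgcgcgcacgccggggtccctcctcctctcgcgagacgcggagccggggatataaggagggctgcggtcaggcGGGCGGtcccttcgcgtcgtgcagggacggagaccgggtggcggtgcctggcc
Slc25a24: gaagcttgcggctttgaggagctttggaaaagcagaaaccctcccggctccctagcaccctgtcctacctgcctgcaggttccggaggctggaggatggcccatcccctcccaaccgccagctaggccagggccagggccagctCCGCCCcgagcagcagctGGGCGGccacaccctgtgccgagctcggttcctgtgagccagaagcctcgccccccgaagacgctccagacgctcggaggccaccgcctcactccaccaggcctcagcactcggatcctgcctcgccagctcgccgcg
Slc25a10: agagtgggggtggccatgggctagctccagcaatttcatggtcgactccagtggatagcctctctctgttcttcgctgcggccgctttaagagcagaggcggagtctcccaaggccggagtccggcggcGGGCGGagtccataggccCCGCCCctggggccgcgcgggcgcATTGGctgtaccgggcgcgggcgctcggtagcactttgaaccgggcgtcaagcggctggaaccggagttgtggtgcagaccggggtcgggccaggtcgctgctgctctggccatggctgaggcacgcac
Slc25a47: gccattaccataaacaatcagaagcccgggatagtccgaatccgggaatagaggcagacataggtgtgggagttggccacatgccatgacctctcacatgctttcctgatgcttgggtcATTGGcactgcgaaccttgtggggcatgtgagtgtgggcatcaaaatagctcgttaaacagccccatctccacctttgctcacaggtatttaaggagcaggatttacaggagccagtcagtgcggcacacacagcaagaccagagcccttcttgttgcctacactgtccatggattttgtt

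GC content was 67.3% in the Slc25a4 window, 68.7% in Slc25a24, 68.0% in Slc25a10 and 51.0% in Slc25a47. GGGCGG was found 1 time for Slc25a4, 2 times for Slc25a24 and Slc25a10 and 0 times for Slc25a47. CCAAT was found 2 times for Slc25a4, 1 time for Slc25a10 and Slc25a47 and 0 times for Slc25a24. Of the 20 members listed for the hepatoma, 15 had a promoter in the table. GGGCGG was in 14 of the 15, all but Slc25a47, against 33.1% of 33469 rat promoters of the same length, and CCAAT in 9 of the 15 against 37.5%. The E-box CACGTG was in 1 member, Slc25a33, against 6.42%, and TATAAA and the HNF4-type CAAAGTCCA were in 0 of the 15 against 14.2% and 0.391%. Members were counted by the first promoter of each gene. The percentages are over all 33469 promoters, with any further ones of a gene, and were not limited to listed genes. The sets compared are thus unlike, and enrichment was not tested. These are matches of letters on both strands and say nothing of binding.

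In the adenine nucleotide and phosphate group, 3 of 4 members rose in the hepatoma, where 85.5% of all tested genes were called higher. Slc25a4, the adenine nucleotide translocase typical of heart and muscle, was 2.71, 2.36 and 10.9 RPKM in control liver and 202, 192, 154 and 136 RPKM in hepatoma libraries 1 to 4. Control library 3 stood above the other two, and the lowest hepatoma library was still far above it. The mean rose 32.2-fold, with a log2 fold change of 5.00 ± 0.43 (adjusted p = 2.53e-05), 5.59 without control library 3, 3.34 with the median equalised and 3.76 after quantile normalization. Slc25a24, a calcium-regulated ATP-Mg/phosphate carrier, was 0.302, 0.363 and 0.683 RPKM in control liver and 30.4, 29.5, 21.6 and 20.7 RPKM in the hepatomas. All control libraries were under 1 RPKM and all hepatoma libraries above 20 RPKM, a 56.9-fold difference of means (4.18 ± 0.20, adjusted p = 4.86e-07, and 2.52 and 2.64 under the 2 scalings). It met the minimum of 1 RPKM through the hepatoma libraries alone, so its entry to the test depended on the difference itself. Rat Slc25a24 overlaps Slc25a54 in the annotation, and whether counting used strand was not given by the labels or file headers. Slc25a3 was 127, 133 and 137 RPKM in control liver and 442, 400, 289 and 321 RPKM in the hepatomas. It became the most abundant listed member there, at 29.7 to 46.0% of the summed RPKM, and rose by 1.43 ± 0.21 (adjusted p = 0.000330), a sign that turned to -0.23 with the median equalised. Slc25a5, the other widely expressed adenine nucleotide translocase, was in none of the 3 tables and has no value here.

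Slc25a23 went against its relative Slc25a24. It was 136, 141 and 65.8 RPKM in control liver and 6.79, 2.08, 35.5 and 30.2 RPKM in the hepatomas. No hepatoma library reached the lowest control, but libraries 1 and 2 were far under libraries 3 and 4, and the difference did not pass (-3.09 ± 0.99, adjusted p = 0.0663). Leaving out hepatoma library 2 or 3 brought the adjusted p under the threshold, to as low as 0.0352.

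Slc25a10 and Slc25a29 were the 2 members called lower. Slc25a10 was 97.4, 93.3 and 54.7 RPKM in control liver and 20.97, 32.7, 49.6 and 42.0 RPKM in the hepatomas. As a percent of the control mean it was 25.6 in hepatoma library 1, 60.6 and 51.3 in libraries 3 and 4, which held more hepatocyte transcripts, and between these in library 2. Hepatoma library 3 came close to control library 3 without reaching it (-1.17 ± 0.32, adjusted p = 0.0147), and the call was lost without control library 1, control library 2 or hepatoma library 2 (adjusted p up to 0.0635). Slc25a29, a carrier of basic amino acids, was 4.15, 3.06 and 2.27 RPKM in control liver and 0.580, 0.609, 1.84 and 1.28 RPKM in the hepatomas. Its groups stayed apart (-1.02 ± 0.25, adjusted p = 0.00764) and the call held in all 7 leave-outs. Under the 2 scalings Slc25a10 was at -2.83 and -2.25 and Slc25a29 at -2.68 and -2.35, so both stayed lower. Slc25a11 was 41.0, 39.2 and 25.7 RPKM in control liver and 70.2, 73.5, 62.2 and 62.8 RPKM in the hepatomas. All 4 hepatoma libraries were above control (0.93 ± 0.21, adjusted p = 0.00460), a sign that turned to -0.73 and -0.18 under the 2 scalings. Rat Slc25a11 overlaps Gp1ba in the annotation, and Slc25a14, Slc25a20, Slc25a22, Slc25a26 and Slc25a40 also each overlap another protein-coding gene.

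Slc25a47, Slc25a22, Slc25a23, Slc25a29 and Slc25a10, like Alb, were higher in hepatoma libraries 3 and 4 than in libraries 1 and 2. Slc25a47 was 182, 238 and 193 RPKM in control liver and 0.758, 0.159, 123 and 56.5 RPKM in the hepatomas. Libraries 1 and 2 were nearly without it and library 3 was within reach of control, and the difference did not pass (-4.21 ± 1.94, adjusted p = 0.215). As a percent of the control mean it was 0.371, 0.0776, 60.4 and 27.6 in hepatoma libraries 1 to 4, while Alb was 0.981, 0.0325, 18.7 and 18.7. Slc25a22 was 83.9, 98.9 and 127 RPKM in control liver and 8.97, 10.6, 62.2 and 52.5 RPKM in the hepatomas, with the same pair low (-2.04 ± 0.78, adjusted p = 0.115, and 0.0423 without hepatoma library 3). As a percent of the control mean it was 8.69, 10.2, 60.2 and 50.9, so it was less depleted than Alb in every hepatoma library. Slc25a20 and Slc25a32, the acylcarnitine carrier and a carrier linked to folate and FAD, differed little between the pairs, with means of 82.7 ± 14.0 and 58.2 ± 9.54 RPKM and of 6.51 ± 0.292 and 5.40 ± 0.435 RPKM in control (n = 3) and hepatoma (n = 4), and neither passed (adjusted p = 0.102 and 0.389). In hepatoma libraries 1 and 2 alone, a choice made after seeing the hepatocyte markers, 13 members were called higher and 5 lower, with log2 fold changes of -7.16 for Slc25a47, -4.48 for Slc25a23 and -3.26 for Slc25a22. Slc25a22, Slc25a23 and Slc25a47 were the additions. Of 8191 genes tested in hepatoma libraries 1 and 2 alone, 7578 were called in either direction. Those libraries were picked by hepatocyte transcripts that move with these genes, so the added calls are a description. Slc25a29 and Slc25a47 are neighbours in the rat annotation.

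**Figure D3:**
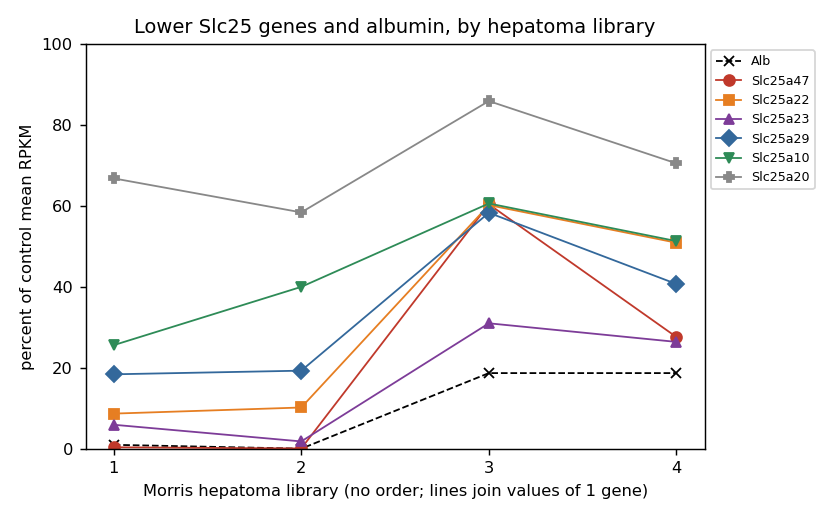
RPKM in each of the 4 Morris hepatoma libraries as a percent of the control mean, for Alb and for Slc25a47, Slc25a22, Slc25a23, Slc25a29, Slc25a10 and Slc25a20, which were lower than control. Slc25a32, also lower than control, is not drawn. Lines join the 4 values of 1 gene and carry no order. Slc25a47 is at 0.371 and 0.0776% in libraries 1 and 2 and at 60.4 and 27.6% in libraries 3 and 4, above Alb at 18.7% in both.

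The remaining increases lay among cofactor, iron and uncoupling-protein-related carriers. Of 6 members of the cofactor and pyrimidine nucleotide group, 5 rose, near the 85.5% of all tested genes called higher. On the deposited scale Slc25a40, linked to glutathione import, rose by 1.34, Slc25a17 by 0.99, the pyrimidine nucleotide carrier Slc25a33 by 0.90 and the S-adenosylmethionine carrier Slc25a26 by 0.79, and all 4 turned negative under both scalings. Slc25a40 was under 1 RPKM in every control library and entered the test through the hepatoma libraries alone. Both iron carriers were higher, against that same background. Slc25a37 (mitoferrin 1), known from erythroid cells, was 1.57, 1.75 and 1.02 RPKM in control liver and 6.28, 6.25, 7.34 and 6.25 RPKM in the hepatomas. Hepatoma libraries 1, 2 and 4 were nearly equal and library 3 was higher (1.63 ± 0.16, adjusted p = 2.06e-05), with values of -0.03 and 0.01 under the 2 scalings. Slc25a28 went from 13.9 ± 4.99 to 37.3 ± 6.48 RPKM (1.42, adjusted p = 0.00147, turning to -0.24 and -0.02). Slc25a30, a relative of the uncoupling proteins, was 1.93, 2.23 and 2.38 RPKM in control liver and 11.1, 9.12, 8.22 and 7.80 RPKM in the hepatomas. Again the groups were far apart (1.65 ± 0.17, adjusted p = 2.12e-05), and the sign turned to -0.01 and -0.04 under the scalings. Slc25a14, a second relative, had the smallest called increase, 0.60 (adjusted p = 0.0123, up to 0.0576 without control library 2 or 3), which turned to -1.06 and -0.93.

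Regenerating liver listed 5 members, of which 1 rose, 1 fell and 3 did not pass, in a table where 21.2% of 1703 genes tested were called higher and 0.763% lower. Slc25a24 was 1.504, 1.52, 1.11 and 1.15 RPKM in regenerating libraries 1 to 4, all above the highest control at 0.683 RPKM (0.68 ± 0.14, adjusted p = 0.0429). It entered this test through the regenerating libraries alone, since no control library reached 1 RPKM. Slc25a47 was 114, 72.2, 85.7 and 134 RPKM, all below the lowest control at 182 RPKM (-1.03 ± 0.21, adjusted p = 0.0443). Both calls were near the threshold: each was lost in 6 of 7 leave-outs, with adjusted p up to 0.180 and 0.158, and stayed only without control library 3 for Slc25a24 and without regenerating library 4 for Slc25a47. The sign for Slc25a24 turned to -0.02 after quantile normalization, and that for Slc25a47 stayed negative, at -1.66 and -1.40, under both scalings. Slc25a10 was 122, 131, 139 and 116 RPKM, all above control liver, where the highest library was 97.4 RPKM (0.67 ± 0.20, adjusted p = 0.152). Slc25a11 was 51.9, 56.7, 49.3 and 57.8 RPKM, all above the highest control at 41.0 RPKM (0.62 ± 0.17, adjusted p = 0.118). Neither passed, and Slc25a33, with means of 3.05 ± 0.764 and 4.25 ± 0.128 RPKM, did not either (adjusted p = 0.302). The transcript of transferrin (Tf), the 1 hepatocyte marker listed here, was 12430 to 19520 RPKM in control and 19920 to 21190 RPKM in regenerating liver.

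The hepatoma was then set directly against regenerating liver for the 5 members listed in both rat tables. Slc25a24 was higher and Slc25a10 lower in the hepatoma, 3 did not pass, and the 1673 genes tested were called higher in 80.8% and lower in 4.0%. Slc25a24 was 20.7 to 30.4 RPKM in the hepatoma and 1.11 to 1.52 RPKM in regenerating liver, with no overlap (3.50 ± 0.17, adjusted p = 3.15e-09). Slc25a10 was 20.97 to 49.6 RPKM in the hepatoma and 116 to 139 RPKM in regenerating liver, again with no overlap (-1.84 ± 0.22, adjusted p = 3.05e-05). Both calls held under both scalings, in all 8 leave-outs and in hepatoma libraries 1 and 2 alone. For Slc25a47, hepatoma library 3 at 123 RPKM fell inside the regenerating range of 72.2 to 134 RPKM, and the difference did not pass (-3.18 ± 1.70, adjusted p = 1.0, and -6.13 in hepatoma libraries 1 and 2 alone). Slc25a11 differed by 0.31 ± 0.14 and Slc25a33 by 0.50 ± 0.15 without passing (adjusted p = 0.718 and 0.0849, the latter 0.0237 without hepatoma library 1), and both turned negative under the scalings.

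**Figure D4:**
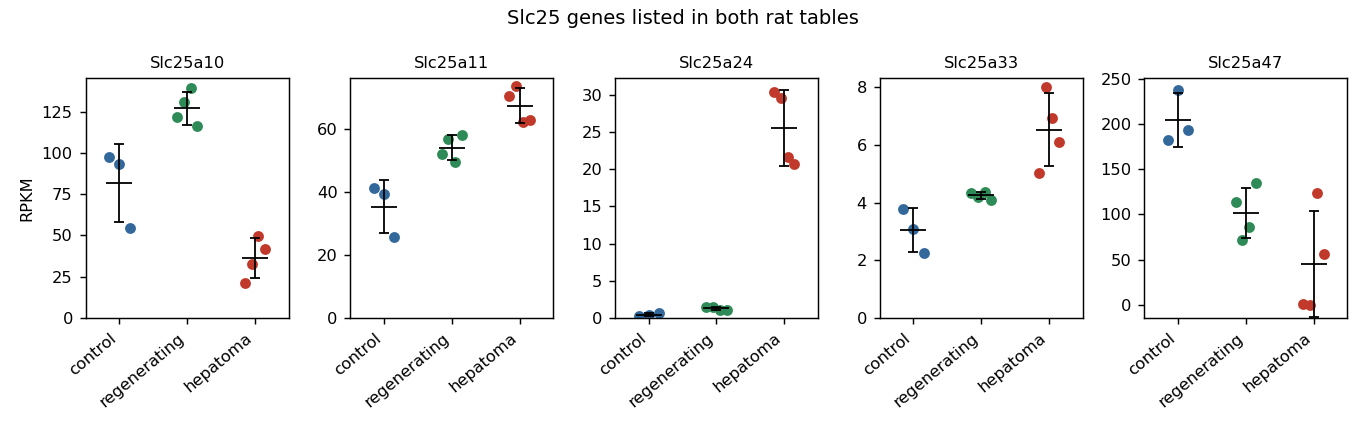
RPKM of the 5 Slc25 genes listed in both rat tables in control liver (n = 3), regenerating liver (n = 4) and Morris hepatoma (n = 4), on linear axes with 1 point per library and mean ± SD as bars. Slc25a24 is near 0 in control and regenerating liver and at 20.7 to 30.4 RPKM in the hepatoma, and Slc25a10 is highest in regenerating liver and lowest in the hepatoma.

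Between the DEN and hepatoma tables, which share no libraries, 9 members were listed in both. Slc25a3, Slc25a11 and Slc25a28 were called lower in mouse livers with tumours, at -0.65, -0.61 and -0.65, and higher in the hepatoma, at 1.43, 0.93 and 1.42. In each of these 3, every library moved in the direction of its table, which listing by deposited p favours. The difference between the models was not tested, since species, control and table differ. The hepatoma increases of Slc25a11 and Slc25a28 turned negative under both scalings and that of Slc25a3 under 1 of them. Slc25a10 was called lower in both tables, at -1.18 and -1.17. Slc25a20, Slc25a22 and Slc25a23 were called lower in the mouse and did not pass in the hepatoma. Slc25a47 passed in neither, at -1.16 and -4.21.

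**Figure D5:**
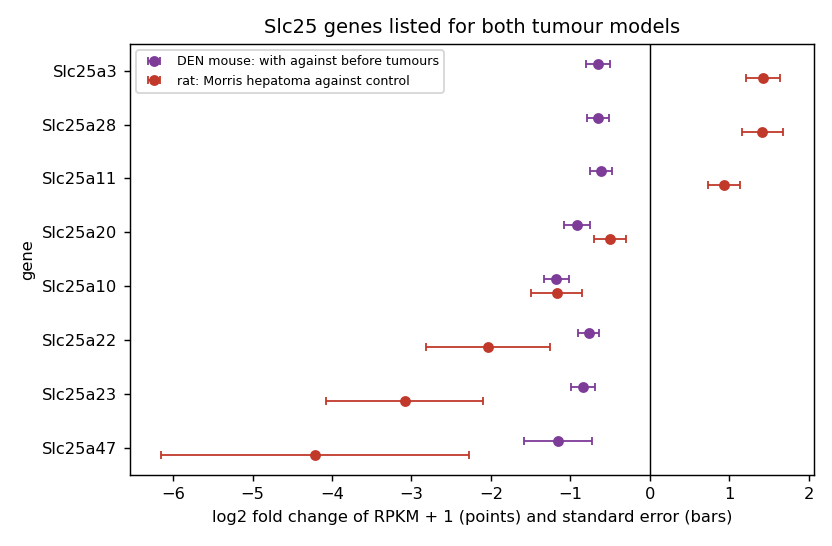
Log2 fold change of RPKM + 1, with standard errors as bars, for 8 Slc25 genes listed in both tumour tables, DEN mouse livers and Morris hepatoma each against its own reference group. The DEN values are all below 0, and the hepatoma values range from -4.21 for Slc25a47 to 1.43 for Slc25a3.

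Genes that work beside the carriers were counted from lists of known roles, on the deposited scale, where the median log2 fold change of all genes tested was -0.56 in DEN livers and 1.58 in the hepatoma. The list counts are read against the shares of all tested genes called. These were 49.5% lower in DEN livers, 85.5% higher and 8.73% lower in the hepatoma, and 21.2% higher and 0.763% lower in regenerating liver. Of 5 carrier-fold genes with other symbols, Mtch1 and Mtch2, outer membrane relatives of the carriers, fell in DEN livers (-0.63 and -0.96), and neither passed under either scaling. In the hepatoma 2 of 2 listed rose. Ucp2, an uncoupling protein, was 18.2, 15.0 and 19.2 RPKM in control liver and 201.9, 216.7, 190.0 and 182.3 RPKM in the hepatomas. Its groups lay far apart (3.44 ± 0.18, adjusted p = 6.42e-07), and it kept its call at 1.77 and 2.40 under the 2 scalings. Mtch1 rose by 1.98, a call lost with the median equalised (0.32, adjusted p = 0.346). Of 15 genes for import of carriers into the inner membrane, 3 were tested in DEN livers (median -0.56) and 1 fell, Timm9 at -1.19. In the hepatoma 9 of 9 tested rose, near the 85.5% of all tested genes, with a median of 1.44, led by the outer membrane import channel Tomm40 (3.05) and its receptor Tomm20 (2.20), but 6 of the 9 turned negative with the median equalised and 3 after quantile normalization.

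Of 21 other transporters of the inner membrane, 3 of 5 tested fell in DEN livers (median -1.08), among them Abcb10 (-1.23) and Sfxn5 (-1.10), and the same number was called lower under both scalings. In the hepatoma 8 of 13 tested rose (median 0.71), with Sfxn3 (3.87) and the calcium uniporter Mcu (2.81) the furthest, and 3 fell, with Mpc1 (-2.36), a subunit of the mitochondrial pyruvate carrier, and Abcb6 (-1.44) the furthest. Under either scaling 8 of the 13 were called lower, and Sfxn3 and Mcu stayed higher. Of all 8233 genes tested, 8.73% were called lower on the deposited scale. In either direction, 4418 were called with the median equalised and 4392 after quantile normalization. Mpc1 was 256.4, 245.7 and 135.8 RPKM in control liver and 22.7, 29.5, 73.7 and 46.1 RPKM in the hepatomas. As with Slc25a47, hepatoma libraries 1 and 2 were the lowest. Outer membrane channels rose in 3 of 3 cases in the hepatoma, where 85.5% of all tested genes did, with a median of 1.34, and of these 2 turned negative with the median equalised and 1 after quantile normalization. In DEN livers 1 of 2 fell, where 49.5% of tested genes did (Vdac1, -0.62, turning to 0.13 after quantile normalization). Genes of mitochondrial mass and upkeep fell in 6 of 8 tested in DEN livers, against 49.5% of all tested genes (median -0.69), with citrate synthase (Cs) at -1.50 and Esrra at -1.10, which kept their calls under both scalings. In the hepatoma 12 of 13 of them rose, near the 85.5% of all tested genes and with a median of 1.47 below theirs, with Nrf1 at 2.66 and Cs at 2.39, which stayed called, while 8 of the 13 turned negative with the median equalised and 5 after quantile normalization. In regenerating liver the import list had 0 of 3 called, Mtch1 did not pass, and Abcb8 and Cs rose by 0.76 and 0.70, calls that neither scaling kept.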

How the data were processed

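Liver RNA sequencing gave 17 libraries in 5 groups, assigned from the labels. The authors deposited 3 tables, 1 per comparison, whose headers name no unit. Values were read as RPKM deposited by the authors, since low values of a gene lie on steps that differ by gene and scale between libraries by 1 factor, and 0.001 stands for no reads. Per the file headers, each table also holds the authors' group means, a log2 ratio and a p-value, and every listed gene had a deposited p-value below 0.05. Aligner, build, annotation and strand use are not given in the sources used here. Only listed genes could enter the fits, so the shared estimate of spread comes from preselected genes.

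A gene was fitted where the number of libraries reaching 1 RPKM was no less than the size of the smaller group. A gene could thus enter through its higher group alone. Slc25a21 did so in DEN livers, Slc25a40 in the hepatoma and Slc25a24 in both rat comparisons with control. For such genes, entry to the test depended on the difference tested. The fits used limma 3.58.1 (R 4.3.3, trend and robust settings) on log2(RPKM + 1). This pseudocount understates the change of low genes. P-values were adjusted by the Benjamini-Hochberg method over all 21951 mouse (GENCODE M21) or 23154 rat (RefSeq GRCr8) protein-coding genes, and an adjusted p under 0.05 was a call. Mean, SD and fold use RPKM, and relative depth is the most common ratio of low values between libraries of a group. Counts were not given, so no counting intervals were computed. The control values of all 1752 genes in both rat tables were identical. Fits were also run on simulated data in which most genes did not change. That setting lacks the shift of most listed genes in the hepatoma, so it cannot vouch for the calls here.

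In full are given the 6 called members with the largest absolute log2 fold change in each direction and every member in all 3 tables, and of each other list the 2 called genes furthest in each direction. Slc25a22, Slc25a23, Slc25a34, Slc25a35, Slc25a31 and Mpc1 are also given by library, chosen after their values were seen, and 1 member that this rule covers is counted but not reported by name or drawn. The members, the lists and the rule were chosen with earlier results of these data known. Alternatives tried were a pseudocount of 0.1, a minimum of 5 RPKM or none, median scaling, quantile normalization, limma without trend and robust settings, adjustment over tested genes, a replicate block, all rat groups in 1 fit, leaving out each library, and hepatoma libraries 1 and 2 alone, the last chosen after seeing the data.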

Additional observations from a re-analysis of the deposited data

Results flagged for a closer look

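Slc25a37 in the Morris hepatoma had 1 library far from the others: the gap of library 3 to its nearest neighbour was 0.972 of the whole range of the 4 libraries. Chance takes about 1 in 20 groups of 4 past the limit used, and 25 groups were examined.

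Of members listed for both tumour models, 3 reported here moved one way in every library of one and the opposite way in every library of the other, on the deposited scale. The log2 fold changes in DEN livers and in the hepatoma were -0.61 and 0.93 for Slc25a11, -0.65 and 1.42 for Slc25a28, and -0.65 and 1.43 for Slc25a3. Listing by deposited p favours groups without overlap, and the differences were not tested.

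Slc25a24 and Slc25a10 differed between hepatoma and regenerating liver by the direct test, by 3.50 and -1.84 on the log2 scale (hepatoma minus regenerating), and each held its call in all 8 leave-outs.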

How the results depend on the processing

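Scaling decided most counts, and the cause was not tested. Median scaling gave 3 DEN members called lower, 2 hepatoma members higher and 11 lower, 0 regenerating members higher and 3 lower in hepatoma against regenerating liver. Quantile normalization gave 2, 3, 8, 0 and 3. Calls over all tested genes, in either direction, moved too. They went from 2481 to 1526 and 1472 of 3684 in DEN livers under median scaling and quantile normalization. In the hepatoma they went from 7761 to 4418 and 4392 of 8233. Under median scaling the log2 fold changes that turned in the hepatoma were -0.73 for Slc25a11, -1.06 for Slc25a14, -0.67 for Slc25a17, -0.87 for Slc25a26, -0.24 for Slc25a28, -0.23 for Slc25a3, -0.011 for Slc25a30, -0.77 for Slc25a33, -0.032 for Slc25a37 and -0.33 for Slc25a40. Under quantile normalization they were -0.18 for Slc25a11, -0.93 for Slc25a14, -0.47 for Slc25a17, -0.82 for Slc25a26, -0.020 for Slc25a28, -0.043 for Slc25a30, -0.75 for Slc25a33 and -0.23 for Slc25a40, and in DEN livers 0.17 for Slc25a1, 0.17 for Slc25a3 and 0.32 for Slc25a39. In regenerating liver Slc25a11 turned to -0.0021 and Slc25a33 to -0.23 under median scaling, and Slc25a24 to -0.019 and Slc25a33 to -0.26 under quantile normalization. Against regenerating liver Slc25a11 turned to -1.23 and -1.05 and Slc25a33 to -1.03 and -0.95. A minimum of 5 RPKM gave 1 hepatoma member lower and 0 regenerating members in each direction, with fewer members tested. Adjustment over tested genes gave 5 hepatoma members lower, 4 regenerating members higher and 2 higher in the direct comparison. All rat groups in 1 fit tested 5 members and gave 3 hepatoma members higher, 1 lower and 0 regenerating members in each direction. Leaving out 1 library gave 7 to 14 DEN members lower, 1 to 4 hepatoma members lower, 0 to 1 regenerating members higher and 0 to 1 lower, and 1 to 2 higher in the direct comparison. Hepatoma member counts lower were 1 without control library 1 or 2 and 4 without hepatoma library 3, and 2 members were higher in the direct comparison without hepatoma library 1. Hepatoma libraries 1 and 2 alone gave 5 members lower, and 2 in the direct comparison. Of all genes tested against control in that setting, 7578 of 8191 were called in either direction. A replicate block gave 10 DEN members lower, 1 hepatoma member lower and 0 regenerating members in each direction. Same-numbered libraries did not clearly deviate together (correlations -0.32 to 0.15). With 3 or 4 libraries per group, this cannot tell whether the numbers pair them, and the labels give no pairing. The pseudocount of 0.1, no filter and limma without trend and robust settings kept every member count within 1.5 times. Depth limits what can be said of members under 1 RPKM.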
